A study of Mus musculus with 4 samples.

Results

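Ifitm1, Ifitm2, Ifitm3 and Ifitm6 are 4 genes of the interferon-induced transmembrane protein family, out of 21506 genes in the tables. They were chosen by name with the control and miR-125b values of these same libraries already known. Their difference between the groups is therefore given as a description without a test. The libraries came from 32Dclone3, a mouse myeloid line that grows in medium containing interleukin-3. Cells carried either the XZ control virus or XZ-miR-125b, which adds the microRNA miR-125b to that vector, and there were 2 libraries per group. Each condition was infected with separate virus supernatants, which does not by itself make the 2 libraries of a group separate infections. The titles number them as replicates, and all come from a single cell line. Both groups carry a stably integrated virus, and the sources used here do not give the promoter of the vector. The hairpin row of Mir125b-1 was empty in the controls, at 0 reads each, and had 4 reads in either miR-125b library.

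Ifitm proteins are small membrane proteins that sit at the cell surface or in endosomes and block the fusion of enveloped viruses with the membrane. Type I and type II interferons induce several of the genes, through transcription factors that bind short elements near the start site, although Ifitm genes are also made without interferon in many stem and progenitor cells. Ifitm3 acts mainly in endosomes, Ifitm1 mainly at the cell surface and Ifitm2 in endosomes, while the mouse gene Ifitm6 is less well described. Ifitm5 is known from bone-forming cells.

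All 4 genes lie within 62.1 kb of chromosome 7 in the mm9 build. From low to high coordinates they are Ifitm2 (148140738 to 148141860, minus strand, 2 exons), Ifitm1 (148153975 to 148155726, plus strand, 2 exons), Ifitm3 (148195489 to 148196643, minus strand, 2 exons) and Ifitm6 (148201711 to 148202791, minus strand, 2 exons). Ifitm1 is the only one of the 4 on the plus strand, and 5.07 kb separate Ifitm3 from Ifitm6. The exon lengths behind the values were 627 bases for Ifitm2, 702 for Ifitm1, 648 for Ifitm3 and 541 for Ifitm6. Ifitm1 also has a second row, a transcript of 3 exons and 676 bases.

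The RefSeq sequences around the start sites show how the members differ in elements to which interferon-activated and myeloid factors can bind. Each window runs from 250 bases before to 50 bases after the start that RefSeq gives for the gene in GRCm38.p6, which need not be the start of the row measured, and is written 5′ to 3′ on the strand of the gene. Capitals mark matches, on either strand, to the core of the interferon-stimulated response element (GAAA, any 2 bases, GAAA) or to the ETS-IRF composite element (GGAA, any 2 bases, GAAA), to which PU.1 binds together with IRF4 or IRF8.
Ifitm1 (chr7:140967826-140968125, plus strand): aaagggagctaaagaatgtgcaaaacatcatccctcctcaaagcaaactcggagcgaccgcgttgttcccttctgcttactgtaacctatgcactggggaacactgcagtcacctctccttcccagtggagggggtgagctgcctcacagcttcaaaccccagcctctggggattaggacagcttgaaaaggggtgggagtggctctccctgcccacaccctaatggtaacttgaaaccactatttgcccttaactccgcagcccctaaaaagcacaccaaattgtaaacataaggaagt
Ifitm2 (chr7:140955912-140956211, minus strand): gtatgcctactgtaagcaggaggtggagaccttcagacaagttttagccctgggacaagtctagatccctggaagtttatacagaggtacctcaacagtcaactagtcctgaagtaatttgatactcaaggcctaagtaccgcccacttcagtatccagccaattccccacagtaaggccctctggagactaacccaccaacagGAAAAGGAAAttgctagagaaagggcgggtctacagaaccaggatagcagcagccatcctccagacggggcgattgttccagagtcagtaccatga
Ifitm3 (chr7:141010695-141010994, minus strand): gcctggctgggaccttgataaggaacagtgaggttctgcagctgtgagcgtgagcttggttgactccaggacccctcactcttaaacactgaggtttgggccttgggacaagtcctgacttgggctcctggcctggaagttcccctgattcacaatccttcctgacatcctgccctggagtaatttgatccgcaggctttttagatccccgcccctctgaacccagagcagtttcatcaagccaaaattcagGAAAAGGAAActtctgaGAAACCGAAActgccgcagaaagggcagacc
Ifitm6 (chr7:141016843-141017142, minus strand): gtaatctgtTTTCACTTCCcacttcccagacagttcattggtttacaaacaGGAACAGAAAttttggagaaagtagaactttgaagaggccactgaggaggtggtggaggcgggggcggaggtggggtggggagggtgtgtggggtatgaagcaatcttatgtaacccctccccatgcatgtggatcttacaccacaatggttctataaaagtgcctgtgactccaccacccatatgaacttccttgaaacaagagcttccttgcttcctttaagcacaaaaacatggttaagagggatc

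The Ifitm3 window held 2 matches to the interferon-stimulated response element core, at bases 3 to 12 and 20 to 29 after the start. The Ifitm2 window held 1, at bases -46 to -37, with the same letters as the first match of Ifitm3. The windows of Ifitm1 and Ifitm6 held none, and 3.44% of all 32851 promoter windows of this length hold at least 1. The 2 Ifitm1 rows start at 148153328 and 148153975 in mm9, too far apart for 1 window, so at least 1 of these starts was not examined. The ETS-IRF composite element matched in the window of Ifitm6 alone among the 4, at bases -241 to -232 on the opposite strand and at bases -199 to -190, and 2.72% of all windows hold it. The gamma-activated site (TTC, any 3 bases, GAA), an element of interferon-gamma response, matched once in Ifitm3, overlapping the second response element match by 3 bases, and once in Ifitm6, and occurs in 8.30% of windows. These are matches of letters and not measured binding.

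The 4 coding sequences are close relatives. Over aligned bases in GENCODE M21 transcripts, Ifitm1 and Ifitm3 shared 85.8%, Ifitm1 and Ifitm2 84.6%, and Ifitm2 and Ifitm3 84.1%. Ifitm6 shared between 75.8% and 80.1% with the other three. Reads from such copies can be divided between genes or lost, depending on how the authors counted. Of all words of 36 bases in the transcript, 53.4% in Ifitm2 also occurred in transcripts of other genes, mostly genes with Gm names, against 17.0% in Ifitm3, 13.98% in Ifitm1 and 0% in Ifitm6. By this sharing of sequence the level of Ifitm2 is the least certain of the 4, whereas counting error is largest for Ifitm6, and the row of Ifitm6 has no such copies at this word length.

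The microRNA added in the miR-125b cells has the RefSeq sequence below, with the seed (bases 2 to 8) in capitals.
mmu-miR-125b-5p: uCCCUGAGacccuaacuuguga
Neither the seed match CTCAGGG nor its shorter form TCAGGG occurred in the 3′ UTR of any of the 4 genes in GENCODE M21. These 3′ UTRs are short, from 139 bases in Ifitm3 to 298 in Ifitm6, where the median of tested genes was 975. In all, 14.2% of 9878 tested genes with a 3′ UTR held CTCAGGG. A single copy of CTCAGGG was found in the 5′ UTR of a longer annotated transcript of Ifitm1.

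Reads summed over all transcript rows ran between 10.4 and 12.6 M per library. A read can count there in several rows of a gene, and with 1 row per gene the totals were 7.73 to 9.48 M. Control replicate 2 stood apart from the others, with Pearson's r of log2(RPKM + 1) over 10310 genes between 0.937 and 0.957 to each of them, where the other 3 libraries ranged between 0.962 and 0.979 among themselves. RPKM is the number of reads per kilobase of exon and per M reads, which allows levels to be compared between genes. Of 16 myeloid and progenitor markers 13 reached 1 RPKM in at least 2 libraries, against 0 of 10 lymphoid, 2 of 8 stromal, 3 of 10 monocyte and macrophage, 4 of 8 mast cell and basophil and 6 of 9 erythroid and megakaryocyte markers. The order of the Ifitm genes by level was the same in each library, with Ifitm3 highest, then Ifitm1, Ifitm2 and Ifitm6.

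Ifitm3 was among the most abundant messages of these cells. read 927 and 1481 RPKM in the controls, against 933 and 699.9 RPKM in the miR-125b pair, ranking 11, 8, 11 and 23 among all genes in that order. Control replicate 2 was the highest and miR-125b replicate 2 the lowest, while control replicate 1 and miR-125b replicate 1 were nearly equal, so the groups overlapped. Group means were 1204 ± 392 RPKM and 817 ± 165 RPKM (SD, n = 2 each). The mean difference on the log2(RPKM + 1) scale was -0.54, with the 4 pairings of a miR-125b with a control library running from -1.08 to 0.01. Without control replicate 2 it was -0.20.

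Ifitm1 read 409 and 497 RPKM in the controls, against 277 and 416 RPKM in the miR-125b pair. Here miR-125b replicate 1 was the lowest library, and miR-125b replicate 2 exceeded control replicate 1, so the groups overlapped again. Group means were 453 ± 62.2 and 347 ± 98.1 RPKM (SD, n = 2 each), a difference of -0.41 in log2(RPKM + 1) and of -0.27 without control replicate 2. Leaving out miR-125b replicate 1 brought it to -0.11. The second Ifitm1 row, which shares most of its exons, gave nearly the same levels, at 411, 507, 278 and 417 RPKM.

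Ifitm2 hardly differed among the libraries. read 169.6 and 169.7 RPKM in the controls, against 185.5 and 157.7 RPKM in the miR-125b pair, which lie on either side of the controls. The group means were 169.6 ± 0.0720 and 171.6 ± 19.7 RPKM (SD, n = 2 each), and the difference of 0.01 in log2(RPKM + 1) became 0.13 when miR-125b replicate 2 was dropped and -0.10 when miR-125b replicate 1 was.

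Ifitm6 was the only one of the 4 whose groups did not overlap. It held 144 and 99 reads in the control libraries, or 23.7 and 17.6 RPKM, and 23 and 9 reads in the miR-125b libraries, or 3.37 and 1.42 RPKM. Exact Poisson intervals at 95%, which cover counting error only, ran from 14.3 to 21.5 RPKM for the lower control library and from 2.14 to 5.05 RPKM for the higher miR-125b library. The control mean of 20.7 ± 4.29 RPKM was 8.64 times the miR-125b mean of 2.39 ± 1.38 RPKM (SD, n = 2 each). On the log2(RPKM + 1) scale the difference was -2.72, from -3.35 to -2.09 over the pairings, and -2.93 without control replicate 2. Only 3 of the 10310 tested genes had a lower value, against 648 below Ifitm3, 1075 below Ifitm1 and 4982 below Ifitm2.

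**Figure D1:**
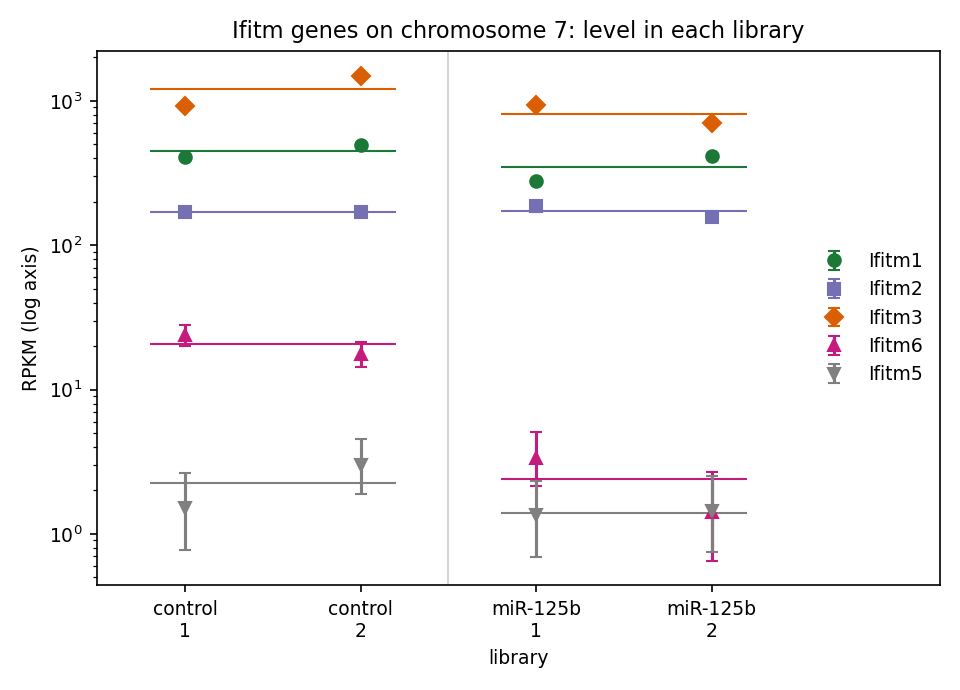
Level of 5 Ifitm genes of chromosome 7 in RPKM (log axis) in each of the 4 libraries. Points are libraries, vertical bars exact 95% Poisson intervals for counting error, and horizontal lines group means. Ifitm6 goes from 23.7 and 17.6 RPKM in control to 3.37 and 1.42 RPKM with miR-125b, whereas the points of Ifitm1, Ifitm2 and Ifitm3 overlap between the groups.

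Across all genes, limma's moderated linear model on log2(RPKM + 1) called 0 of 10310 genes at an adjusted p under 0.05, which is 0% of those tested. Unadjusted p-values were under 0.05 for 967 genes, 5.21% lower and 4.17% higher, and limma-voom on the recovered reads called 0 with 994 at an unadjusted p under 0.05. The groups did not overlap, with miR-125b lower, in 20.4% of tested genes, and with miR-125b higher in 22.3%. Of the 4 Ifitm genes, 1 had groups that did not overlap, and nothing is read from that count because the genes were picked with this comparison known.

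Added together, the 4 genes amounted to 1529 and 2165 RPKM in the controls, against 1399.8 and 1275 RPKM in the miR-125b pair. Ifitm3 made up 60.6% and 68.4% of that sum in control and 66.7% and 54.9% with miR-125b. The share of Ifitm1 was 26.7% and 22.9% in control and 19.8% and 32.6% with miR-125b. Ifitm6 supplied 1.55% and 0.815% in control and 0.241% and 0.111% with miR-125b. The summed level was lower in both miR-125b libraries than in either control, by a margin smaller than the gap between the 2 controls.

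The 2 libraries of a group differed from each other in ways that set Ifitm3 apart from Ifitm1 and Ifitm2. In log2(RPKM + 1), control replicate 2 exceeded control replicate 1 by 0.68 for Ifitm3, by 0.28 for Ifitm1 and by 0.00 for Ifitm2, and lay 0.41 below it for Ifitm6. The step from miR-125b replicate 1 to replicate 2 was -0.41 for Ifitm3, 0.58 for Ifitm1, -0.23 for Ifitm2 and -0.85 for Ifitm6. Medians of all tested genes were -0.02 and -0.01 for these within-group differences.

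Most interferon-stimulated genes were, like Ifitm3, highest in control replicate 2 and lowest in miR-125b replicate 2. Of 53 listed genes 50 were tested, and 0 were called in limma's model. At an unadjusted p under 0.05 in that model, 13 were lower and 0 higher, where 5.21% of all genes were lower and 4.17% higher. A lower mean with miR-125b was found in 47 of 50, and in 47.2% of all genes. The median difference was -1.06 in log2(RPKM + 1), where all tested genes had 0.02. Groups did not overlap in 20 of the 50 with miR-125b lower and in 1 with miR-125b higher. The shares over all genes were 20.4% and 22.3%. Dropping control replicate 2 brought the median to -0.50 and dropping miR-125b replicate 2 to -0.47, so each of these libraries carried a large part of it. Without miR-125b replicate 1, a fit in which the lone library is assumed to vary like the controls, 24 members were called and all were lower, where 0.727% of all genes were called lower and 0.155% higher in that fit (91 of 10310 in all).

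Control replicate 2 was the highest and miR-125b replicate 2 the lowest library for 41 of these 50 genes, an order found in 12.8% of all tested genes. Ifitm3 had that order, and Ifitm1, Ifitm2 and Ifitm6 did not. The gap between the highest and the lowest library was 1.08 in log2(RPKM + 1) for Ifitm3, while its median over the interferon-stimulated genes was 2.00, and 11 of the 50 had a smaller gap than Ifitm3. Zbp1, a sensor of left-handed nucleic acids, had control values of 22.5 and 87.8 RPKM and miR-125b values of 17.8 and 3.18 RPKM. Ifit1, which binds foreign RNA ends, had control values of 35.95 and 92.7 RPKM and miR-125b values of 38.7 and 2.84 RPKM. Ifi44 had control values of 38.9 and 87.8 RPKM and miR-125b values of 22.5 and 5.92 RPKM, and Rsad2, which encodes the antiviral enzyme viperin, at 13.5 and 82.3 against 17.3 and 2.30 RPKM. Control replicate 1 and miR-125b replicate 1 were close to each other in Ifit1 and Rsad2, as they were in Ifitm3. What set the interferon-stimulated genes at different levels in the 2 libraries of a group was not tested.

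**Figure D2:**
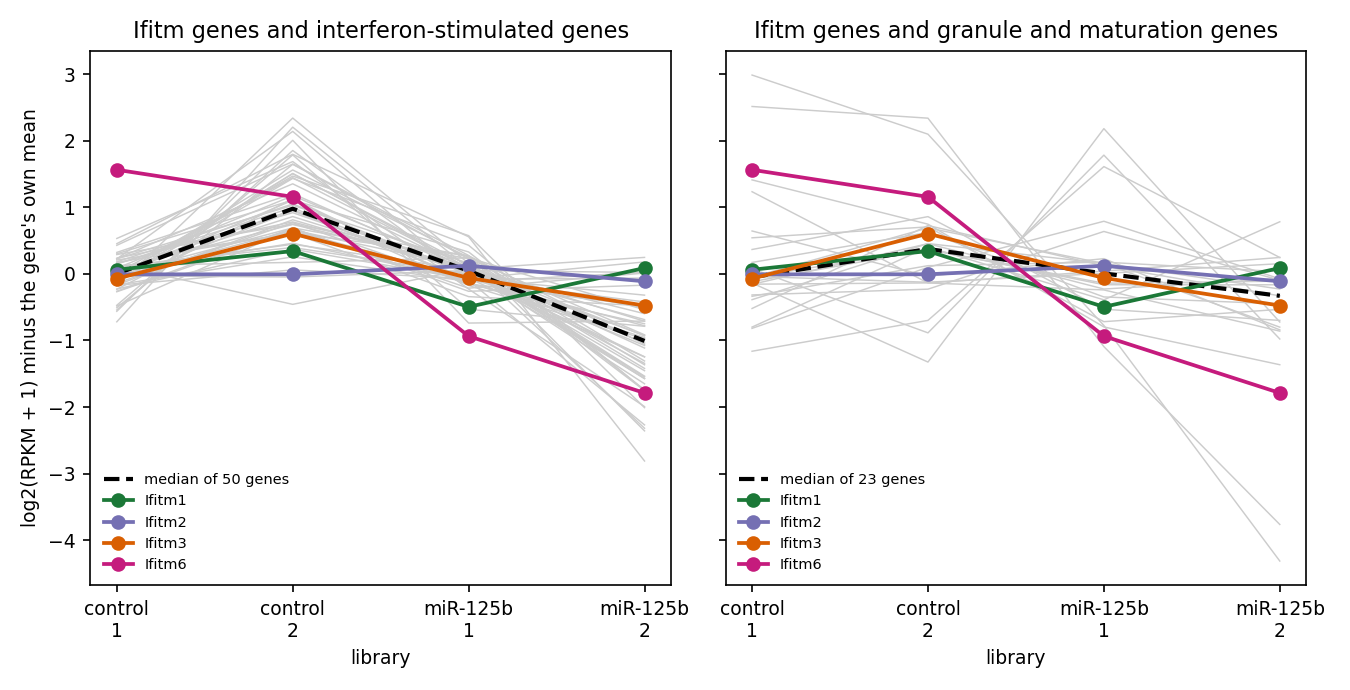
Log2(RPKM + 1) of each gene minus its own mean, in the 4 libraries, for the 4 Ifitm genes (coloured) beside 50 interferon-stimulated genes (left, grey) and 23 granule and maturation genes (right, grey), with the median of each list dashed. Lines join values of a gene and imply no order of libraries. Ifitm3 follows the shape of the dashed line on the left at a smaller range, Ifitm2 is nearly flat, and Ifitm6 is high in both controls and low in both miR-125b libraries.

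Receptor and signalling genes of the interferon pathway differed in both directions, with 13 lower and 5 higher with miR-125b. Of 19 listed genes 18 were tested and 0 were called. Irf8, the untested gene, was almost silent, at 0.063 and 0.034 RPKM in the controls against 0.056 and 0.030 RPKM. At an unadjusted p under 0.05 in limma, 2 were lower and 1 higher, where 5.21% of all genes were lower and 4.17% higher. The median difference was -0.33 in log2(RPKM + 1). A lower mean was found in 72.2%, against 47.2% of all genes. Groups did not overlap in 6 with miR-125b lower and in 3 with miR-125b higher. The shares over all genes were 20.4% and 22.3%. Control replicate 2 was highest and miR-125b replicate 2 lowest in 9 of the 18, against 12.8% of all genes. Irf7, the IRF factor that drives type I interferon genes and is itself induced by interferon, had control values of 56.1 and 167.7 RPKM and miR-125b values of 81.4 and 15.1 RPKM. The feedback inhibitor Usp18 was at 48.5 and 130.9 RPKM against 64.9 and 22.0 RPKM. Irf7 and Usp18 both had control replicate 2 highest and miR-125b replicate 2 lowest, with groups that overlapped. Socs1, a feedback inhibitor of JAK kinases, had control values of 6.43 and 13.6 RPKM and miR-125b values of 6.04 and 2.17 RPKM. The receptor-bound kinase gene Tyk2 had control values of 15.0 and 21.8 RPKM and miR-125b values of 10.98 and 10.5 RPKM. In Socs1 and Tyk2 both miR-125b libraries were below both controls. Among the 91 genes called without miR-125b replicate 1, 3 were of this list, namely Irf7, Socs1 and Usp18, all lower.

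Ifitm6 varied more between the groups than within them, and the genes nearest to it in pattern were not interferon-stimulated genes of the list. Over the 4 libraries, the Euclidean distance between centred log2(RPKM + 1) values was smallest to Gzmb (0.584), Mir223 (0.953) and Cpa3 (1.03), among 8072 genes with a mean of at least 5 RPKM. Gzmb, which encodes the granule protease granzyme B, had control values of 206.5 and 109.2 RPKM and miR-125b values of 38.8 and 23.5 RPKM. The hairpin row of Mir223, a microRNA of maturing myeloid cells, had control values of 13.0 and 7.01 RPKM and miR-125b values of 2.16 and 1.55 RPKM, but it is a short row with a mean of only 7.25 reads per library. Cpa3, the carboxypeptidase of mast cell granules, had control values of 23.4 and 15.1 RPKM and miR-125b values of 7.48 and 3.35 RPKM. In each of these, as in Ifitm6, control replicate 1 was highest and miR-125b replicate 2 lowest, an order that the choice by distance favours. Irf7 came at place 240 from Ifitm6, at a distance of 2.18. From Ifitm3 it came at place 8012, at 1.75, since the range of Irf7 was wider than that of Ifitm3. S100a8 and S100a9, the widest-ranging of the granule and maturation genes, lay farther from Ifitm6 than Irf7 did, at places 1022 and 6380. Lyz2 and Ltf, the lactoferrin gene, of the same list lay nearer than Irf7. Centred values, controls first, were 1.56, 1.16, -0.93 and -1.79 for Ifitm6. They were 0.54, 0.71, -0.72 and -0.53 for Lyz2 and 1.41, 0.75, -0.80 and -1.36 for Ltf. Ltf had no place, as its mean was under 5 RPKM. Mpo ran the opposite way, at -1.16, -0.70, 1.61 and 0.25. Nothing about shared control follows from a likeness over 4 libraries.

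Genes of neutrophil granules and granulocytic maturation differed in both directions beside Ifitm6. Of 34 listed genes 23 were tested and 0 were called. At an unadjusted p under 0.05 in limma, 7 were lower and 1 higher, where 5.21% of all genes were lower and 4.17% higher. The median difference was -0.25 in log2(RPKM + 1). S100a8, a subunit of calprotectin, had control values of 144.3 and 127.6 RPKM and miR-125b values of 10.9 and 0.870 RPKM, and its partner S100a9 at 459.7 and 247.8 against 33.0 and 1.92 RPKM. Lyz2, which encodes lysozyme, had control values of 140.4 and 157.4 RPKM and miR-125b values of 58.0 and 66.1 RPKM. Mpo, the myeloperoxidase gene of primary granules, was higher with miR-125b, at 273.0 and 105.3 RPKM against 39.1 and 54.2 RPKM. Summed over the list, levels ran from 2149 to 2716 RPKM in control and from 1457 to 1964 RPKM with miR-125b. Of the list, Mmp8, Cybb, Fpr1, Fpr2 and Retnlg were at 0 in every library. Other members were present in every library, among them Lcn2 at 21.9 to 67.6 RPKM and Ngp at 55.6 to 240.9 RPKM. For mast cell and basophil markers the sums were 36.7 to 39.7 RPKM in control and 27.6 to 41.4 RPKM with miR-125b, with Tpsb2 and Fcer1a at 0 in every library. Of the 4 tested markers Cpa3 was lower with miR-125b and the other 3 were higher, with a median of 0.65 in log2(RPKM + 1). Ms4a2, a chain of the IgE receptor, was at 1.85 and 0.668 RPKM in the controls against 3.69 and 3.38 RPKM. The basophil protease gene Prss34 was at 0.659 and 0 RPKM against 8.41 and 2.59 RPKM, and Mcpt8 at 13.4 and 20.3 against 21.5 and 18.0 RPKM. The part of a shift in maturation or in cell mix in the level of Ifitm6 was not tested. In bulk RNA, fewer cells that express a gene and less RNA per cell cannot be told apart.

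The median of the granule list was 0.01 without control replicate 2 and -0.49 without control replicate 1. Dropping miR-125b replicate 1 gave 3 called members among 91 called genes. Dropping miR-125b replicate 2 gave 6 among 25, where 0.155% of all genes were called lower and 0.0873% higher. S100a8, S100a9 and Ltf, the lactoferrin gene, were called and lower in both of these fits. Mpo and the stefin genes Stfa1 and Stfa2 were called and higher without miR-125b replicate 2. Ltf, Stfa1 and Stfa2 are named here after their values were seen.

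The genes nearest in pattern to the other 3 members belong to neither list, but both lists are small beside the 8072 genes compared. Among the genes closest to Ifitm3 were Esrra (0.0746), a nuclear receptor of energy metabolism, and Slc25a28 (0.0942), a mitochondrial iron carrier. Esrra had control values of 15.5 and 26.1 RPKM and miR-125b values of 16.9 and 11.9 RPKM. The choice by distance itself favours proportions close to those of Ifitm3. Some interferon-stimulated genes also lay near Ifitm3, though most of that list ranged more widely. Centred values, controls first, were -0.07, 0.61, -0.06 and -0.47 for Ifitm3. They were 0.04, 0.46, -0.08 and -0.42 for Samhd1, which is named after its values were seen. Ifitm1 was closest to E130306D19Rik (0.102), to Pitpnc1 (0.107), a phosphatidylinositol transfer protein, and to Hnrnpd (0.150), an RNA-binding protein. Ifitm2 was closest to Sec16a (0.0355), an organizer of endoplasmic reticulum exit sites, 1810027O10Rik (0.0441) and the deubiquitinase gene Josd1 (0.0465). Ifitm1 and Ifitm2 lay 0.740 from each other, Ifitm1 and Ifitm3 0.770, and Ifitm2 and Ifitm3 0.737. Many genes lay closer to a member than its nearest relative did. Ordered by distance, Ifitm2 came at place 2772 from Ifitm3 and at place 4150 from Ifitm1, and Ifitm3 at place 493 from Ifitm6.

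Genes next to the cluster differed less between the groups than Ifitm6, as nearly all tested genes did. Because Ifitm6 was picked with this comparison known, nothing about the locus follows from that. Of 24 other genes that start within 200 kb of the members, 13 were tested, and 0 were called. Their median difference was -0.10 in log2(RPKM + 1). Groups did not overlap in 3 of the 13 with miR-125b lower and in 3 with miR-125b higher. This is close to the shares of 20.4% lower and 22.3% higher over all genes. Ifitm5, on the far side of Ifitm2, had control values of 1.51 and 2.99 RPKM and miR-125b values of 1.34 and 1.44 RPKM, from 12 to 22 reads per library. Among the genes on that side, the differences were -0.11 for Athl1, -0.10 for Psmd13, -0.19 for Sirt3, -0.07 for Ric8 and -0.19 for Bet1l. Scgb1c1, a secretoglobin gene at low level, was the exception at 1.44, with 0 and 0.441 RPKM in the controls against 1.99 and 2.54 RPKM. Beyond Ifitm6 they were 0.18 for B4galnt4, -0.19 for Sigirr, 0.36 for Ptdss2, 0.09 for Rnh1, -0.13 for Hras1 and 0.24 for 1600016N20Rik. Ifitm3, whose row ends 5.07 kb from that of Ifitm6, differed by -0.54.

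**Figure D3:**
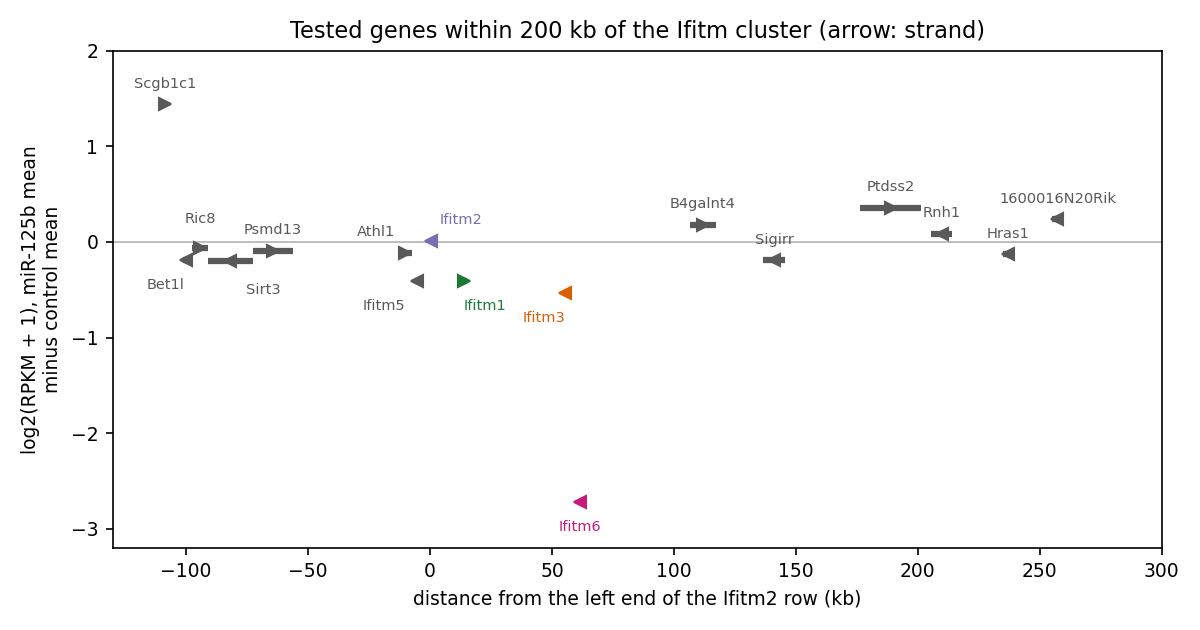
Difference in log2(RPKM + 1), miR-125b mean minus control mean, of each tested gene within 200 kb of the Ifitm cluster against its distance from the left end of the Ifitm2 row in kb. Bars span the gene and arrows give its strand. Ifitm6 stands at -2.72 and the other Ifitm genes between -0.54 and 0.01.

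Genes for proteins that bind or modify Ifitm proteins differed in both directions, 11 being higher and 7 lower with miR-125b. Of 20 listed genes, 18 were tested and 0 were called. None of them, 0 of 18, reached an unadjusted p under 0.05 in limma, with a median of 0.08 in log2(RPKM + 1). Nedd4, a ubiquitin ligase that marks Ifitm3 for degradation, had control values of 183.8 and 126.9 RPKM and miR-125b values of 199.7 and 287.8 RPKM. Of the palmitoyltransferases, Zdhhc20 had control values of 6.80 and 4.97 RPKM and miR-125b values of 8.67 and 7.51 RPKM, and Zdhhc7 at 14.4 and 14.3 against 10.7 and 10.9 RPKM. The difference of Nedd4, 0.65 in log2(RPKM + 1), was larger in size than that of Ifitm3 and opposite in sign. The groups did not overlap in 7 of the 18 genes, 3 higher and 4 lower, which is close to the shares of 22.3% and 20.4% over all genes. Nedd4, Zdhhc20 and Zdhhc7 were among the 7. Zmpste24, a membrane protease that binds Ifitm proteins, had control values of 39.8 and 20.0 RPKM and miR-125b values of 39.5 and 34.3 RPKM. The tetraspanin gene Cd53 read 56.9 and 40.0 RPKM in the controls against 38.3 and 32.6 RPKM, also without overlap.

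Other genes with the CD225 domain that defines the family were almost silent. Of 10 found in the tables, Ifitm5 and Tmem91 were tested, and 0 were called. Ifitm7, on chromosome 16, had between 0 and 2 reads per library, and so had Ifitm10, listed under 6330512M04Rik. Prrt1, Tmem90b and Tmem233 were at 0 in every library.

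**Figure D4:**
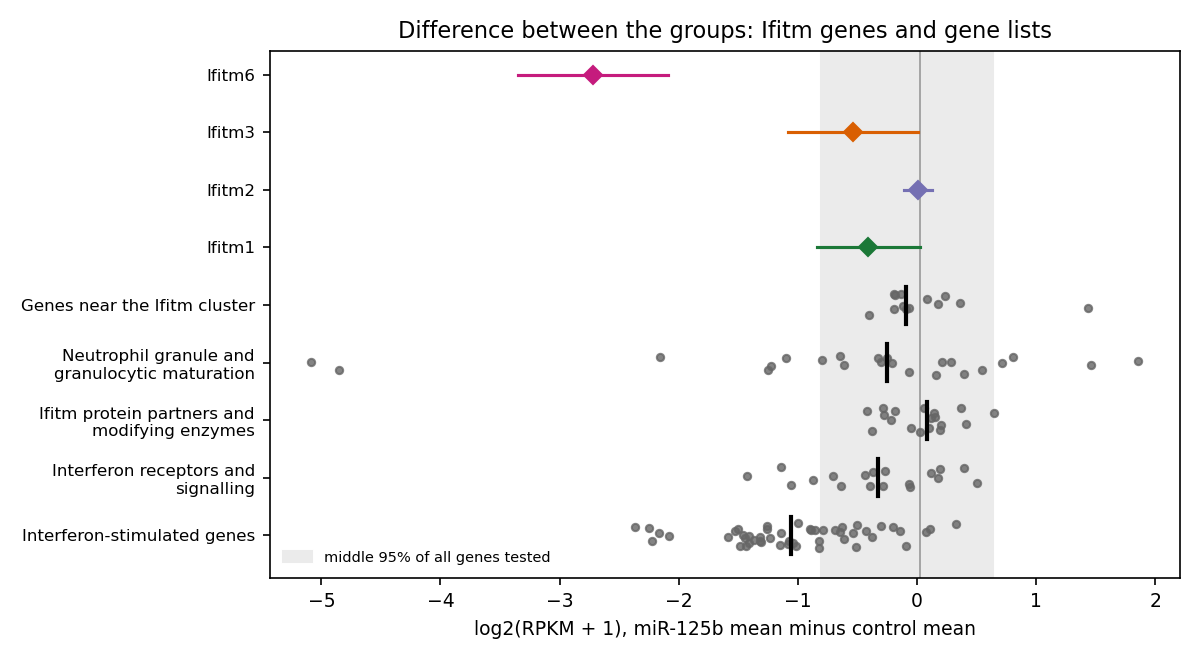
Difference in log2(RPKM + 1), miR-125b mean minus control mean. Diamonds give the Ifitm genes with lines over the 4 pairings of libraries, grey points the tested genes of each list, black bars list medians, and the shaded band the middle 95% of all tested genes. Ifitm6 lies at -2.72, left of the band, and Ifitm1, Ifitm2 and Ifitm3 lie inside it, while the median of the interferon-stimulated genes is -1.06.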

How the data were processed

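The authors deposited 1 table per library with an RPKM value for each of 26982 RefSeq transcript rows, in the mm9 build per the submitters' processing notes. Which aligner and counter were used, and how reads with several matches were treated, is not stated there. Multiplying by exon length recovered whole reads in 100% of rows (tolerance 0.001 reads). Reads in all rows were 11.2, 10.4, 12.6 and 11.7 M. The labels do not state stranded counting. Genes with several rows are represented by their longest one.

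Genes at 1 RPKM or more in at least 2 libraries were fitted with limma 3.58.1 (R 4.3.3, trended prior, 2-sided) on log2(RPKM + 1), with Benjamini-Hochberg adjustment over all 10310 genes and a threshold of 0.05. The pseudocount understates changes of low genes. Per gene, the libraries supplied 2 residual degrees of freedom, against 4.63 for the trended prior over all genes. Each p-value therefore rests on variation between the 2 libraries of each group. That variation is weighted more towards the trend over all genes than towards the gene itself. The code was tested on simulated reads. Alternatives were pseudocounts, filters, scalings, row choice, limma-voom, a replicate block and leaving out each library.

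List genes were named by largest difference at a mean of 5 RPKM or more (4 per list, and 5 for partners and signalling). Results on a few genes that this rule or the likeness would name are not reported here. Likeness was the Euclidean distance between centred log2 values. RefSeq promoters and miRNAs (GRCm38.p6) and GENCODE M21 transcripts supplied sequences only, joined by accession or symbol for 99.4% of tested genes. The members and lists were chosen with earlier results of these data known.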

Additional observations from a re-analysis of the deposited data

How the results depend on the processing

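The differences of Ifitm1, Ifitm2, Ifitm3 and Ifitm6 each stayed within the spread between replicates in all 13 alternatives. For many of these no other outcome was possible. Leaving out a library cannot move a difference beyond that spread, and the filters and the replicate block leave the difference unchanged. Ifitm6 ran from -3.18 (limma-voom) to -2.30 (without miR-125b replicate 2) in log2, and Ifitm1 and Ifitm3 kept a negative sign. Ifitm2 changed sign with single libraries. The count of 0 called genes was 137 without a filter on low values, where genes with values of 0 in several libraries enter, and between 0 and 91 with libraries left out in turn, being 91 when miR-125b replicate 1 was dropped, 25 when miR-125b replicate 2 was, and 1 when control replicate 2 was. The number at an unadjusted p under 0.05, 967, became 3007 on dropping control replicate 1 and was 332 on dropping miR-125b replicate 2.

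In the same leave-one-out fits, called members numbered between 0 and 3 for interferon receptors and signalling, 0 and 24 for interferon-stimulated genes and 0 and 6 for granule and maturation genes. With the replicate number of the titles as a block, 12 genes were called in all, 3 of them in the granule list. Deviations of same-numbered libraries from their group means correlated at 0.021 over all tested genes, and separate supernatants served the conditions. Whether same-numbered libraries had any handling in common was not tested. The cause of these moves was not tested. The median near the cluster, -0.10, was 0 without a filter and 0.07 without control replicate 2. Ifitm6 rests on 9 to 144 reads per library, which limits its ratio.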
